A study of Rattus norvegicus with 6 samples.

Results

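The genes described are the Wnt ligands, their receptors and the secreted proteins that modulate them in the sciatic nerve of male Sprague-Dawley rats after a nerve defect. They were chosen by symbol, as the Wnt, Frizzled (Fzd), R-spondin (Rspo), Sfrp and Dkk genes with Frzb, Wif1, Lrp5 and Lrp6, which gave 44 of the 23091 genes of the table. Of these, 32 passed the filter on low counts and were tested. In the conduit group (3 libraries, conduit 1 to 3), wild-type rats had a sciatic nerve defect treated with the nerve conduit GDNF-Gel/HA-Mg, whose name includes glial cell line-derived neurotrophic factor (GDNF). In the NC group (3 libraries), rats with the same defect had the wound closed without an implant. No conduit without GDNF is among the samples, so the conduit and the factor cannot be told apart, and neither age nor the interval since the operation is given in the labels. Nothing there states that each library is a different animal, and the p-values therefore rest on the spread of these 6 libraries, which may be technical.

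Wnt proteins are secreted, lipid-modified ligands. They bind Frizzled receptors, and with the co-receptors Lrp5 and Lrp6 they stabilise β-catenin, which then activates genes with TCF/LEF transcription factors. Other Wnt ligands act through Frizzled without β-catenin on cell polarity and movement. R-spondins strengthen the signal, while Sfrp proteins, Frzb and Wif1 bind Wnt ligands outside the cell. Some Dkk proteins, such as Dkk2, act on Lrp5 and Lrp6. In peripheral nerve, Wnt signalling has been tied to the expression of myelin genes by Schwann cells.

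The total count ranged from 16120518 to 18491379 in the conduit libraries and from 15897850 to 17990057 in the NC libraries. The libraries differed widely in tissue make-up within each group. The mean log2 level of 12 myelin genes, all 12 tested and set against their average over the 6 libraries, stood at 1.63, -2.38 and 1.96 in conduit 1, 2 and 3, against -2.88, 2.84 and -1.18 in NC 1, 2 and 3. Sox10, which marks Schwann cells, had counts in every library. The Schwann lineage list (9 genes) stood lowest in NC 3, at -1.56, where 7 of its 9 genes were lowest. The exceptions were S100b, with 571 CPM in NC 3 the second highest of the 6 libraries, and Gap43. The transcription factor Sox10 stood at 179, 122 and 161 CPM in conduit 1, 2 and 3, against 154, 243 and 21.8 CPM in NC 1, 2 and 3. In NC 3 the adipocyte list (10 genes), at 1.62, and the share of counts from haemoglobin, at 25.2%, were the highest of the 6 libraries. The haemoglobin share was 8.08%, 12.9% and 14.8% in conduit 1, 2 and 3, against 1.19% and 1.02% in NC 1 and NC 2. Each conduit library thus held more blood RNA than NC 1 and NC 2, and its part in the comparison of the groups was not tested. The skeletal muscle list (9 of 10 genes tested) stood at -2.56, 1.77 and 3.84 in conduit 1, 2 and 3, against -4.13, -0.15 and 1.24 in NC 1, 2 and 3, so muscle RNA was also unevenly spread. In bulk tissue, fewer cells of a type and less RNA per cell cannot be told apart.

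The design sets nerve treated with the conduit against nerve left without an implant, and how far either had regrown was not tested. No Wnt ligand, receptor or inhibitor passed the test. Of the 32 tested, 15 had a higher and 17 a lower fitted level with the conduit, and the median log2 fold change was -0.03, beside -0.01 over all 13999 genes tested. The test was edgeR's quasi-likelihood test, two-sided, with Benjamini-Hochberg adjustment over all genes tested. It called 0 of the 32 members, none of which had an unadjusted p under 0.05. DESeq2 and limma-voom also called 0 of them. Over all genes edgeR called 0% at an adjusted p under 0.05, while 1.72% had an unadjusted p under 0.05 (1.03% higher and 0.693% lower with the conduit), and DESeq2 called 0.0786%. In 1 of the 32 members the groups did not overlap, against 5.69% of all genes (2.81% higher and 2.88% lower with the conduit). A negative log2 fold change was found in 53.1% of the tested members and in 53.0% of all genes.

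Precision varied with the gene. The 95% interval of the log2 fold change excluded a 4-fold change for 24 of the 32 members, against 88.3% of all genes. The median standard error was 0.43 for the members and 0.23 for all genes, on the log2 fold change scale. The highest library exceeded the lowest 2.89 times in the median member and 1.68 times in the median gene, without matching for count level. All 10 tested receptors had an interval inside 4-fold, as did 7 of 12 ligands, 5 of 8 secreted inhibitors and both R-spondins.

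**Figure D1:**
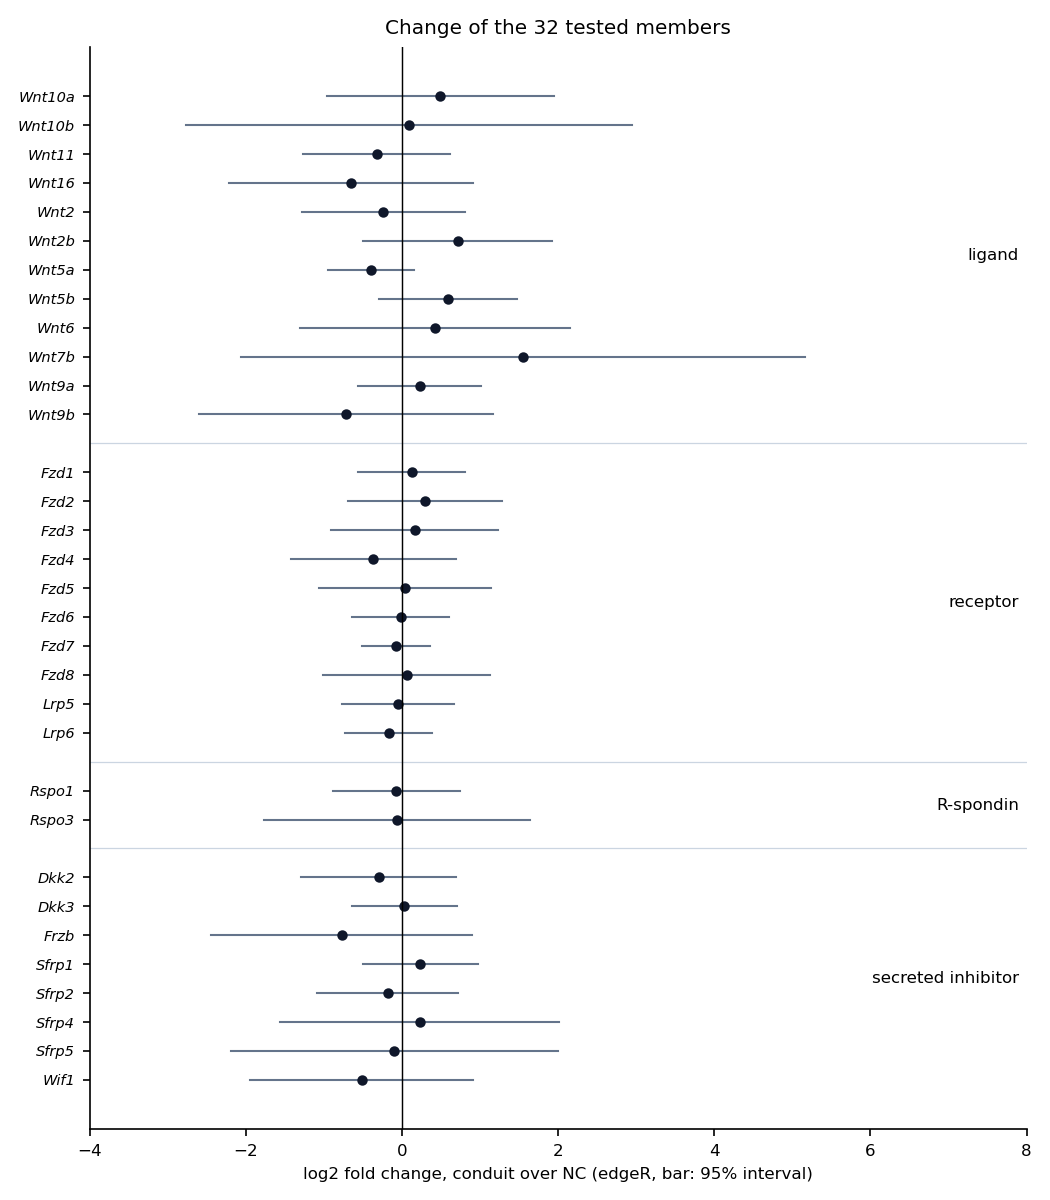
Log2 fold change of the 32 tested members, conduit over NC, by role; points are edgeR estimates and bars 95% intervals. Every bar crosses 0, the 10 receptor bars lie inside a 4-fold change, and Wnt7b and Wnt10b, with few counts in some libraries, have the longest.

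Among the ligands, Wnt5b (ENSRNOG00000008168), which mostly acts without β-catenin, was the one member whose groups did not overlap. It stood at 1.35, 1.96 and 1.71 CPM in conduit 1, 2 and 3, against 1.25, 1.27 and 0.795 CPM in NC 1, 2 and 3. The lowest conduit library, conduit 1, was close to the highest NC library, NC 2. The mean was 1.67 ± 0.307 CPM with the conduit and 1.104 ± 0.268 CPM in NC (SD, n = 3 each), with a log2 fold change of 0.59 ± 0.36 (SE, edgeR adjusted p 1.00). These values rest on 23, 36 and 29 counts in conduit 1, 2 and 3, against 24, 22 and 11 counts in NC 1, 2 and 3. Its relative Wnt5a (ENSRNOG00000015618), the best-known ligand of the branch without β-catenin, stood at 11.9, 14.1 and 17.9 CPM in conduit 1, 2 and 3, against 20.04, 14.97 and 22.7 CPM in NC 1, 2 and 3. Conduit 3 lay above NC 2, so the groups overlapped. The log2 fold change was -0.39 ± 0.23 (SE), with an unadjusted p of 0.133 that was the smallest of the 32 members (edgeR adjusted p 1.00). The log2 fold changes of Wnt5a and Wnt5b thus lay on opposite sides of 0, and the difference between them was not tested.

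Wnt2b (ENSRNOG00000014385), a ligand of the β-catenin branch, stood at 14.5, 7.12 and 14.7 CPM in conduit 1, 2 and 3, against 5.61, 12.4 and 4.05 CPM in NC 1, 2 and 3. Conduit 1, conduit 3 and NC 2 were high and the other 3 libraries low. Its log2 fold change was 0.71 ± 0.50 (SE, 95% interval -0.50 to 1.92, edgeR adjusted p 1.00). Wnt6 (ENSRNOG00000017409) and Wnt10a (ENSRNOG00000052510) were high in the same libraries. Wnt6 stood at 24.9, 7.44 and 35.3 CPM in conduit 1, 2 and 3, against 11.5, 31.04 and 7.81 CPM in NC 1, 2 and 3. Wnt10a stood at 4.21, 3.37 and 8.55 CPM in conduit 1, 2 and 3, against 1.56, 6.36 and 3.54 CPM in NC 1, 2 and 3. Both had conduit 3 as the highest library, and in Wnt10a the values of conduit 1, conduit 2 and NC 3 lay close together. Their log2 fold changes were 0.42 ± 0.71 and 0.49 ± 0.60 (SE, edgeR adjusted p 1.00 for each). In RefSeq's annotation of the rat assembly GRCr8, Wnt6 and Wnt10a are next to each other with no annotated gene between them.

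Wnt10b (ENSRNOG00000061238), a ligand known for holding back fat cell formation, showed another pattern. It stood at 1.29, 5.92 and 1.002 CPM in conduit 1, 2 and 3, against 6.49, 0.578 and 0.578 CPM in NC 1, 2 and 3. One library of each group, conduit 2 and NC 1, was high, with 109 and 125 counts, and the other 4 libraries had 8 to 22 counts. The ratio of highest to lowest library was 11.2, and the log2 fold change of 0.09 ± 1.17 (SE) had a 95% interval of -2.76 to 2.95. Wnt7b (ENSRNOG00000015750) was also uneven, with 15, 45 and 0 counts in conduit 1, 2 and 3, against 12, 8 and 0 counts in NC 1, 2 and 3. Each group thus had a library with no count of Wnt7b, where a count of 0 allows up to 3 counts, and its log2 fold change of 1.56 ± 1.48 (SE, edgeR adjusted p 1.00) had a 95% interval of -2.06 to 5.17.

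The other tested ligands were Wnt2, Wnt9a, Wnt9b, Wnt11 and Wnt16. Wnt9a stood at 12.2, 13.9 and 10.9 CPM in conduit 1, 2 and 3, against 14.8, 10.5 and 6.22 CPM in NC 1, 2 and 3, with NC 3 lowest. Wnt11, which acts on cell movement, stood at 2.34, 3.91 and 1.89 CPM in conduit 1, 2 and 3, against 3.22, 2.601 and 4.41 CPM in NC 1, 2 and 3. Wnt16 stood at 1.81, 1.52 and 0.649 CPM in conduit 1, 2 and 3, against 2.86, 2.66 and 0.723 CPM in NC 1, 2 and 3, where conduit 3 and NC 3 were low and the other 4 libraries between 1.52 and 2.86 CPM. Wnt9b stood at 1.29, 0.326 and 0.354 CPM in conduit 1, 2 and 3, against 1.25, 0.405 and 1.59 CPM in NC 1, 2 and 3, and here conduit 1, NC 1 and NC 3 were high. Wnt2 was even, between 0.5896 and 1.195 CPM with the conduit and between 0.868 and 1.21 CPM in NC. Wnt9b had only 22, 6 and 6 counts in conduit 1, 2 and 3, against 24, 7 and 22 counts in NC 1, 2 and 3. Wnt2 had 10 to 22 and Wnt16 10 to 55 counts per library. The part of counting error in these patterns was not tested. The log2 fold changes of the ligands in this paragraph ranged from -0.71 for Wnt9b to 0.23 for Wnt9a, with an edgeR adjusted p of 1.00 for each.

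**Figure D2:**
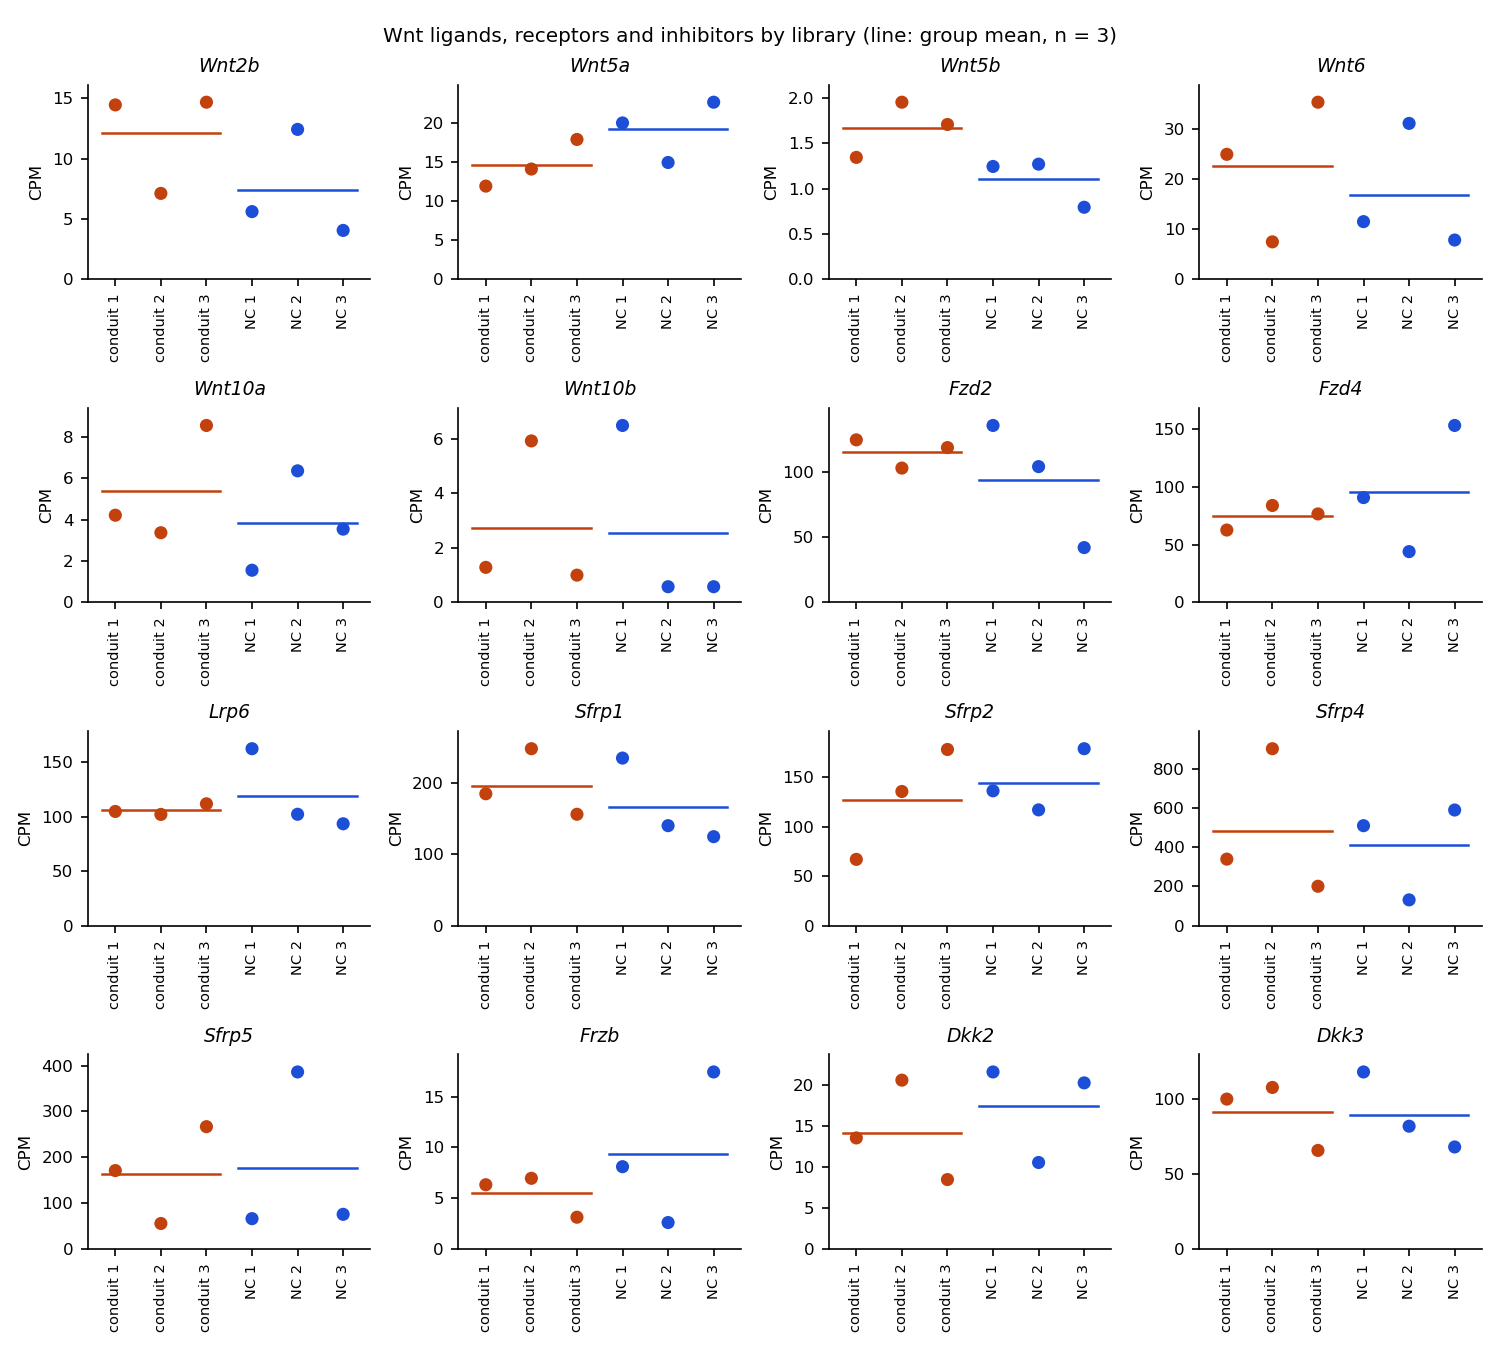
CPM of 16 members in each library, on linear axes that start at 0; points are libraries (conduit left, NC right) and lines are group means (n = 3). Wnt2b, Wnt6 and Sfrp5 are high in conduit 1, conduit 3 and NC 2, while Sfrp4 and Wnt10b are highest in conduit 2 or NC 1.

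The highest library exceeded the lowest 2.36 times in the median tested receptor and 4.01 times in the median tested ligand. The Wnt7b ratio enters as infinite, since 2 libraries had no count. Total counts ran from 80 (Wnt7b) to 2026 (Wnt6) in the tested ligands and from 314 (Fzd5) to 11751 (Lrp6) in the tested receptors. Counting error widens this ratio where counts are low, and its part in the difference was not tested. The receptors also shared a pattern, since NC 3 was at one end of the range in all 10 of them. It was the lowest library for 7 receptors (Fzd1, Fzd2, Fzd3, Fzd5, Fzd7, Fzd8 and Lrp6) and the highest for the other 3 (Fzd4, Fzd6 and Lrp5). Over all genes tested, NC 3 was lowest in 24.8% and highest in 24.8%. The counts of 7 and 3 receptors were the same under each of 3 other scalings, chosen after seeing the data. NC 3 is the library with the lowest Schwann lineage list and the highest adipocyte and red cell lists, and their part in these values was not tested.

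Fzd2 (ENSRNOG00000021962), a Frizzled that serves both branches, stood at 125, 103 and 119 CPM in conduit 1, 2 and 3, against 136, 104 and 42.1 CPM in NC 1, 2 and 3. Fzd8 (ENSRNOG00000069521), a receptor of the β-catenin branch, stood at 31.8, 22.1 and 26.8 CPM in conduit 1, 2 and 3, against 33.6, 33.2 and 10.5 CPM in NC 1, 2 and 3. In both, 5 libraries lay close together and NC 3 far below them. Fzd3, which is needed for axon guidance, stood at 6.97, 4.18 and 5.31 CPM in conduit 1, 2 and 3, against 6.28, 6.13 and 2.24 CPM in NC 1, 2 and 3, with NC 3 again lowest. Fzd4 (ENSRNOG00000063590), the receptor of norrin in vessels, stood at 62.6, 83.8 and 76.5 CPM in conduit 1, 2 and 3, against 90.6, 43.9 and 153 CPM in NC 1, 2 and 3. Here NC 3 was the highest and NC 2 the lowest library, and the conduit libraries lay between them. The order of the libraries in Fzd4 was that of the adipocyte list, which stood at -0.72, 0.14 and -0.28 in conduit 1, 2 and 3, against 0.29, -1.05 and 1.62 in NC 1, 2 and 3. For this pair Pearson's r was 0.980 (exact permutation p 0.00139, adjusted p 0.193) and Spearman's rho was 1.00 (exact permutation p 0.00278, adjusted p 0.231) over the 6 libraries, and r was 0.987 without the 2 libraries farthest from the median of the list. The endothelial list was also highest in NC 3 and lowest in NC 2. With it Pearson's r was 0.893 (exact permutation p 0.0306, adjusted p 0.301) and Spearman's rho was 0.714 (exact permutation p 0.136, adjusted p 0.515) over the 6 libraries. Without the 2 libraries farthest from the median of the list r was 0.074, but too few libraries then remain to tell what the relation rests on. Fzd4 also ran against the Schwann lineage list, with r -0.880 (exact permutation p 0.0111, adjusted p 0.289). With the perineurial list r was -0.865 (exact permutation p 0.0167, adjusted p 0.289). With the macrophage list r was 0.856 (exact permutation p 0.0250, adjusted p 0.289). The relation was thus not particular to the adipocyte list. No pair of a member with a marker list passed, among 416 pairs of 32 members with 13 lists adjusted together. The 720 orders of 6 libraries kept the permutation p at or above 0.00139 for Pearson's r and 0.00278 for Spearman's rho. After adjustment over the 416 pairs, even the pairs at these limits did not pass. The absence of calls therefore does not show that the members and lists are unrelated. The order of the libraries was the same or the opposite in 5 pairs, which were Fzd4 with the adipocyte list, Dkk2 with the fibroblast list and, in opposite order, Wnt10a with the fibroblast list and Fzd6 and Lrp5 with the perineurial list.

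The co-receptors Lrp5 (ENSRNOG00000015911) and Lrp6 (ENSRNOG00000006338) went opposite ways in NC 3. Lrp5 stood at 51.3, 58.2 and 51.3 CPM in conduit 1, 2 and 3, against 56.5, 33.3 and 76.3 CPM in NC 1, 2 and 3. Lrp6 stood at 105, 102 and 112 CPM in conduit 1, 2 and 3, against 162, 102 and 93.5 CPM in NC 1, 2 and 3. The conduit libraries were close to each other in both genes, and the NC libraries spread around them. The means were 53.6 ± 4.003 CPM with the conduit and 55.4 ± 21.5 CPM in NC for Lrp5, and 106 ± 5.03 CPM with the conduit and 119 ± 37.5 CPM in NC for Lrp6 (SD, n = 3 each). The log2 fold changes were -0.05 ± 0.30 and -0.17 ± 0.23 (SE, 95% intervals -0.77 to 0.67 and -0.73 to 0.39, edgeR adjusted p 1.00 for each), so the intervals lay within a 2-fold change. The other receptors ranged from -0.37 for Fzd4 to 0.30 for Fzd2 on the log2 fold change scale. Fzd7 was the evenest of all members, with 24.1, 26.5 and 26.8 CPM in conduit 1, 2 and 3, against 32.03, 28.7 and 20.9 CPM in NC 1, 2 and 3. Fzd1 stood at 17.6, 17.1 and 24.6 CPM in conduit 1, 2 and 3, against 18.9, 23.4 and 12.1 CPM in NC 1, 2 and 3, and its conduit libraries lay within the NC range apart from conduit 3. Fzd5 stood at 4.21, 1.79 and 3.18 CPM in conduit 1, 2 and 3, against 3.37, 3.81 and 1.74 CPM in NC 1, 2 and 3, with conduit 2 and NC 3 low. Fzd6 stood at 23.0, 23.7 and 17.6 CPM in conduit 1, 2 and 3, against 23.4, 14.7 and 26.96 CPM in NC 1, 2 and 3, with NC 2 low. The log2 fold changes of Fzd1, Fzd5 and Fzd6 were 0.12, 0.04 and -0.02, and the edgeR adjusted p was 1.00 for each receptor.

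**Figure D3:**
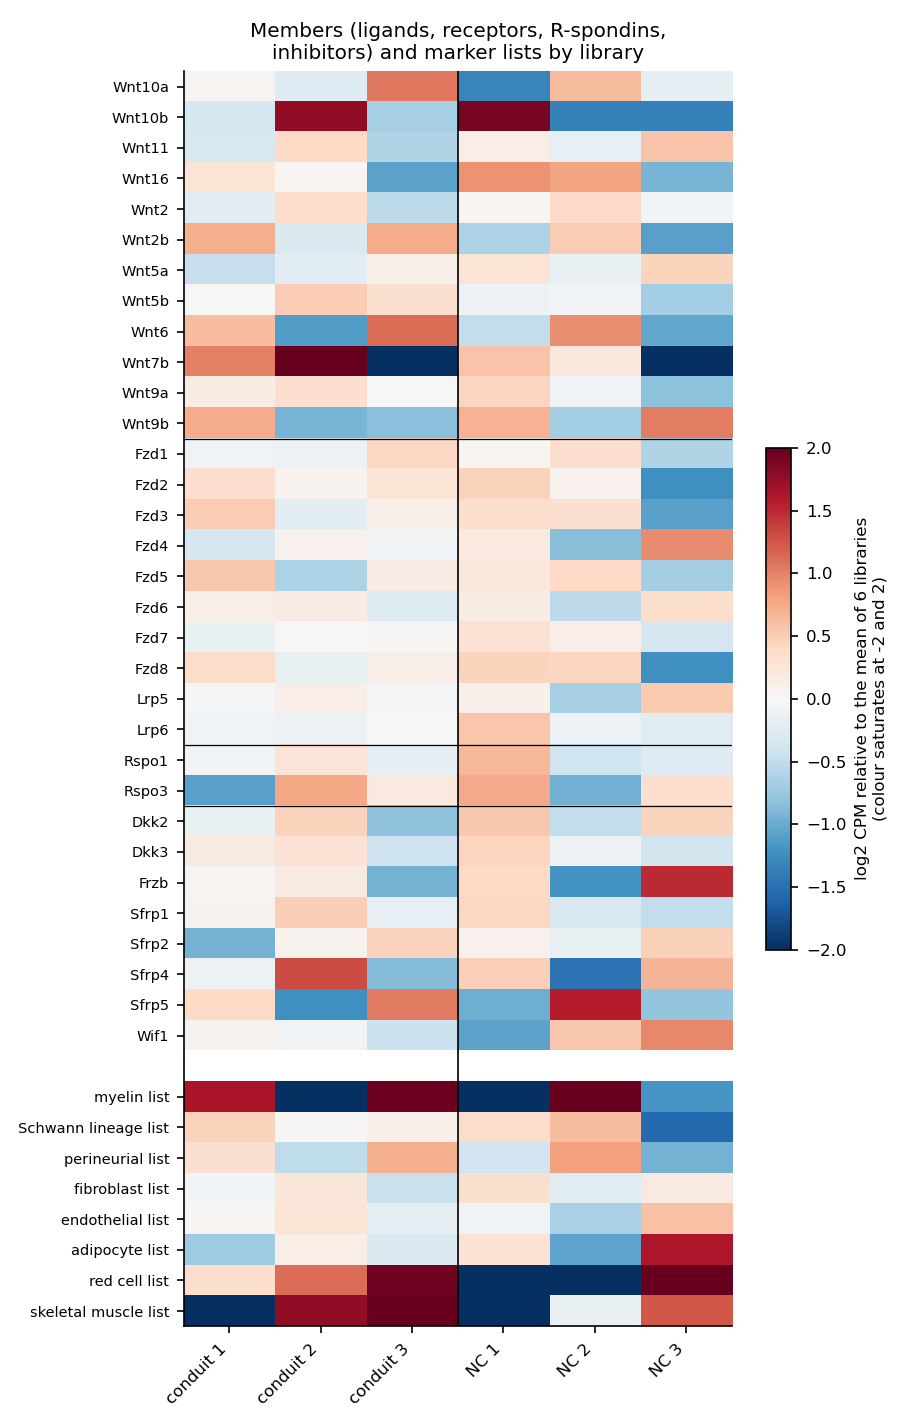
Log2 CPM of the 32 tested members and of 8 marker lists in each library, relative to the mean of the 6 libraries; red is higher, blue lower, and the colour saturates at -2 and 2. NC 3 is the bluest library for Fzd2, Fzd3 and Fzd8 and the reddest for Fzd4, and Sfrp5, Wnt6 and Wnt2b share their red libraries with the myelin and perineurial lists.

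R-spondins bind the Lgr receptors and keep Frizzled at the cell surface. Rspo1 (ENSRNOG00000009656) stood at 7.902, 9.84 and 7.13 CPM in conduit 1, 2 and 3, against 13.03, 6.18 and 6.87 CPM in NC 1, 2 and 3, with NC 1 highest and the other 5 libraries between 6.18 and 9.84 CPM. Rspo3 (ENSRNOG00000011568) stood at 0.468, 2.01 and 1.297 CPM in conduit 1, 2 and 3, against 1.97, 0.5202 and 1.45 CPM in NC 1, 2 and 3, with conduit 1 and NC 2 low. The log2 fold changes were -0.07 ± 0.33 and -0.06 ± 0.70 (SE, edgeR adjusted p 1.00 for each). Rspo2 did not pass the filter, with 5, 19 and 2 counts in conduit 1, 2 and 3, against 49, 4 and 10 counts in NC 1, 2 and 3, and most of them were in NC 1.

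Among the secreted inhibitors, Sfrp5 and Sfrp4 differed widely between libraries of the same group. Sfrp5 (ENSRNOG00000014940), which binds and sequesters Wnt ligands, stood at 171, 55.6 and 267 CPM in conduit 1, 2 and 3, against 66.1, 386 and 75.6 CPM in NC 1, 2 and 3. Conduit 1, conduit 3 and NC 2 were high and the other 3 libraries low, which is the same split as in the myelin list. Within the low libraries the values lay between 55.6 and 75.6 CPM. The group means of 164 ± 106 CPM with the conduit and 176 ± 182 CPM in NC (SD, n = 3 each) did not separate, with a log2 fold change of -0.10 ± 0.86 (SE, 95% interval -2.19 to 2.00, edgeR adjusted p 1.00). Sfrp4 (ENSRNOG00000054957), an inhibitor of the same family, showed the reverse split. It stood at 339, 901 and 201 CPM in conduit 1, 2 and 3, against 509, 132 and 589 CPM in NC 1, 2 and 3, so that conduit 2, NC 1 and NC 3 were high. Its log2 fold change was 0.23 ± 0.73 (SE, 95% interval -1.56 to 2.01, edgeR adjusted p 1.00). For Sfrp5 and the myelin list Pearson's r was 0.969 (exact permutation p 0.00972, adjusted p 0.289) and Spearman's rho was 0.943 (exact permutation p 0.0167, adjusted p 0.4202) over the 6 libraries, and r was 0.981 without the 2 libraries farthest from the median of the list. For Sfrp4 and this list Pearson's r was -0.899 (exact permutation p 0.0236, adjusted p 0.289) and Spearman's rho was -0.829 (exact permutation p 0.0583, adjusted p 0.441) over the 6 libraries, and r was -0.963 without the 2 libraries farthest from the median of the list. Neither passed, and both members were picked out for following the split of the libraries. The perineurial list (5 of 7 genes tested) stood at 0.32, -0.51 and 0.70 in conduit 1, 2 and 3, against -0.38, 0.82 and -0.95 in NC 1, 2 and 3, which is the same split of the libraries. Its marker Lypd2 had no count in any library. With the perineurial list Pearson's r was 0.930 for Sfrp5 (exact permutation p 0.0250, adjusted p 0.289). For Sfrp4 it was -0.905 (exact permutation p 0.0167, adjusted p 0.289). Sfrp5 also ran against the fibroblast list, with Pearson's r -0.924 (exact permutation p 0.0139, adjusted p 0.289) and Spearman's rho -0.886 (exact permutation p 0.0333, adjusted p 0.4202). The part of myelinating cells, perineurial cells and fibroblasts in the values of these members was not tested.

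**Figure D4:**
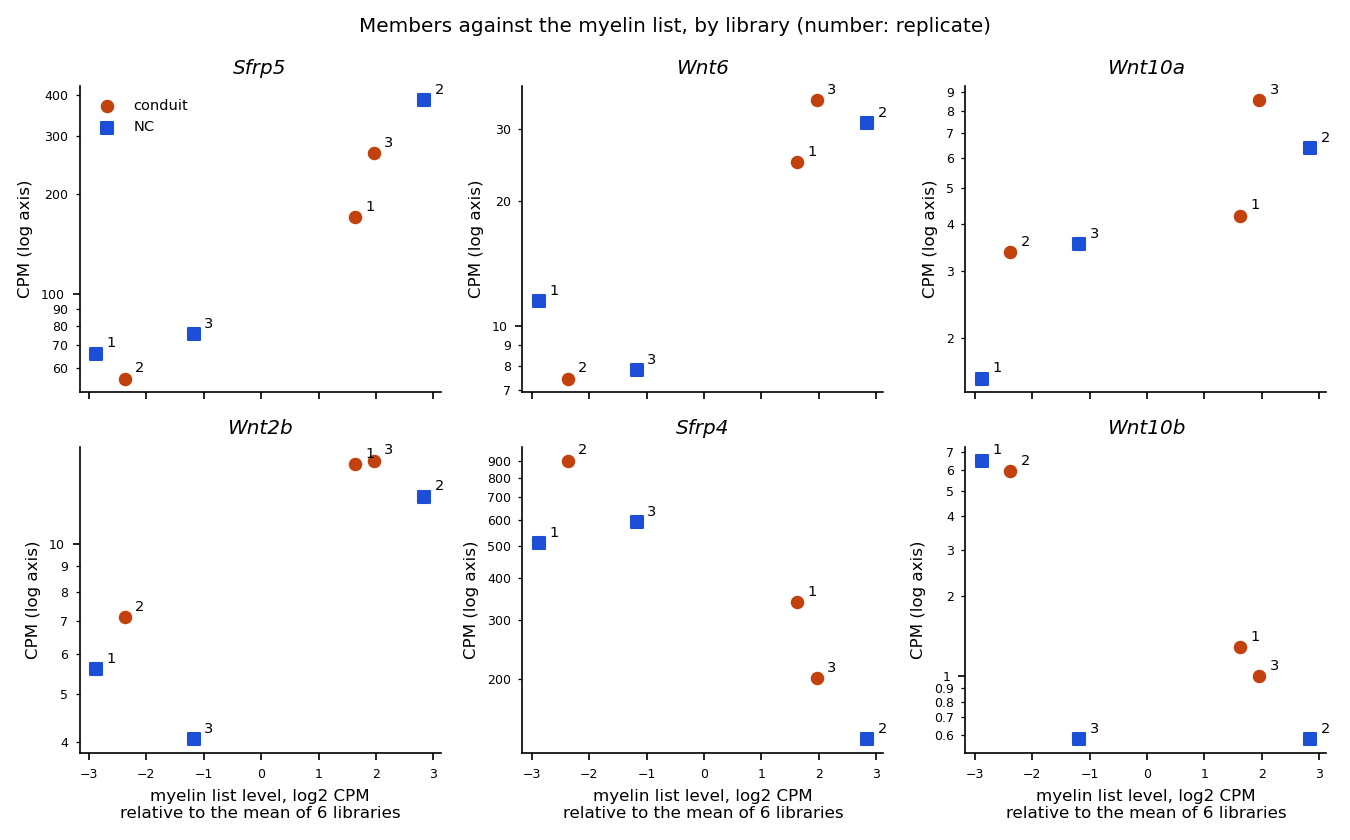
CPM of 6 members on log axes against the mean level of 12 myelin genes (log2 CPM relative to the mean of the 6 libraries); circles are conduit and squares NC libraries, numbered by replicate. Sfrp5, Wnt6 and Wnt2b are high in the 3 libraries at the right (conduit 1, conduit 3 and NC 2), and Sfrp4 is low there.

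The promoters of Sfrp5, Wnt6, Wnt10a and Wnt2b are shown because these 4 members were high in the same libraries as the myelin and perineurial lists. Pearson's r with the perineurial list was 0.967 for Wnt6 and 0.932 for Wnt2b, against 0.905 and 0.830 with the myelin list. For Wnt10a it was 0.712 with the perineurial list and 0.858 with the myelin list. None of these pairs passed, and the split of the libraries does not tell the lists apart. Each promoter runs from 250 bases before the RefSeq start of the gene to 50 bases after it on GRCr8, 5′ to 3′ on the strand of the gene, and capitals mark matches to the motifs named after them. They lie at chr1:250960463-250960762 (minus strand), chr9:83778302-83778601 (plus strand), chr9:83798344-83798643 (plus strand) and chr2:195156896-195157195 (minus strand).
Sfrp5: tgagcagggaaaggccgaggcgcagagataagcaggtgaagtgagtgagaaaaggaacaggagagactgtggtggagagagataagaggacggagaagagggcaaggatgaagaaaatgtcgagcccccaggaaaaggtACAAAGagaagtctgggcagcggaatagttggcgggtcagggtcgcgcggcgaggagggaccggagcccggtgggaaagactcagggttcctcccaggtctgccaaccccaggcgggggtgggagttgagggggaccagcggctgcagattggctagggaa
Wnt6: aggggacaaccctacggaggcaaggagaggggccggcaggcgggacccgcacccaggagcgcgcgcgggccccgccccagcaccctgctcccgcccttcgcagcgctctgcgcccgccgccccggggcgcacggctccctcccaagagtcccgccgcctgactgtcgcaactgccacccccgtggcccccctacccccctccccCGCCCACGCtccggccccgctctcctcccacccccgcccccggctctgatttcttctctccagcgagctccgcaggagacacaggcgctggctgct
Wnt10a: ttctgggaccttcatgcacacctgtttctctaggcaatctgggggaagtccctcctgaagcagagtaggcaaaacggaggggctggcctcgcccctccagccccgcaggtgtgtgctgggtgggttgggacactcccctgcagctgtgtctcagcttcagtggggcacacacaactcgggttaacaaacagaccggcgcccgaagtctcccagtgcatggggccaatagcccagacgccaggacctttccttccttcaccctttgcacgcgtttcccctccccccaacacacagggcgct
Wnt2b: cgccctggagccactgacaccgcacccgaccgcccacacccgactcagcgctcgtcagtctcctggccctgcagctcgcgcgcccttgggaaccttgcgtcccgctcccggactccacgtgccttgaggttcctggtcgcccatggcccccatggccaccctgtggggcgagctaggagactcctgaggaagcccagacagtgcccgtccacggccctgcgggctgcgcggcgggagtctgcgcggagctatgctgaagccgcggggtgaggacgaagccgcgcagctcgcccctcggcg
These promoters were rich in G and C, at 59.7%, 76.3%, 61.3% and 72.0% of bases for Sfrp5, Wnt6, Wnt10a and Wnt2b. The motifs searched on both strands were ACAAAG, a core bound by SOX factors, GCGTGGGNG, bound by EGR factors such as the myelin regulator Egr2, and ATCAAAG, bound by TCF/LEF factors; the first and the last share the letters CAAAG. The SOX core was found once in Sfrp5, and it occurs in 18.8% of the 33469 promoters of the RefSeq table. The EGR motif was found once in Wnt6, on the opposite strand, and it occurs in 1.66% of all promoters. Of the 20 tested members with a promoter in the table, 2 held the SOX core (Frzb and Sfrp5) and 3 the EGR motif (Fzd8, Wif1 and Wnt6). TCF/LEF letters were found in none of the 20, and in 3.63% of all promoters. These shares were not matched for G and C content, and enrichment of a motif among the members was not tested. None of the motifs matched in these windows of Wnt10a and Wnt2b.

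Sfrp1 (ENSRNOG00000017783) and Sfrp2 (ENSRNOG00000009465), inhibitors made by fibroblasts among other cells, did not show this split. Sfrp1 stood at 185, 248 and 156 CPM in conduit 1, 2 and 3, against 235, 140.3 and 125 CPM in NC 1, 2 and 3, with conduit 2 and NC 1 high. Sfrp2 stood at 66.9, 135 and 178 CPM in conduit 1, 2 and 3, against 136, 117 and 178 CPM in NC 1, 2 and 3, with conduit 1 low and conduit 3 and NC 3 high. Their log2 fold changes were 0.24 ± 0.30 and -0.18 ± 0.37 (SE, edgeR adjusted p 1.00 for each). Frzb (ENSRNOG00000007765), an inhibitor first known from cartilage, stood at 6.32, 6.96 and 3.12 CPM in conduit 1, 2 and 3, against 8.099, 2.601 and 17.4 CPM in NC 1, 2 and 3. NC 3 was far above the other libraries, and its log2 fold change was -0.77 ± 0.69 (SE, edgeR adjusted p 1.00), the lowest of the 32. Without NC 3 it was 0.02. Wif1 (ENSRNOG00000004476) stood at 1.64, 1.47 and 1.12 CPM in conduit 1, 2 and 3, against 0.675, 2.31 and 3.11 CPM in NC 1, 2 and 3, and its NC libraries spanned the conduit libraries on both sides.

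Of the Dkk family, Dkk2 (ENSRNOG00000011360) and Dkk3 (ENSRNOG00000016343) were tested. Dkk2, which acts on Lrp6, stood at 13.6, 20.6 and 8.49 CPM in conduit 1, 2 and 3, against 21.6, 10.6 and 20.3 CPM in NC 1, 2 and 3. Conduit 2, NC 1 and NC 3 were high, as in Sfrp4. This order of libraries was that of the fibroblast list (10 genes), which stood at -0.05, 0.25 and -0.45 in conduit 1, 2 and 3, against 0.32, -0.25 and 0.17 in NC 1, 2 and 3. For Dkk2 and this list Pearson's r was 0.993 (exact permutation p 0.00139, adjusted p 0.193) and Spearman's rho was 1.00 (exact permutation p 0.00278, adjusted p 0.231) over the 6 libraries, and r was 0.965 without the 2 libraries farthest from the median of the list. Dkk2 also ran against the myelin and perineurial lists. With the myelin list Pearson's r was -0.918 (exact permutation p 0.0361, adjusted p 0.320) and Spearman's rho was -0.943 (exact permutation p 0.0167, adjusted p 0.4202). With the perineurial list r was -0.922 (exact permutation p 0.0333, adjusted p 0.301) and rho was -0.714 (exact permutation p 0.136, adjusted p 0.515). The relation was thus not particular to the fibroblast list. Dkk3, a divergent member of the family, stood at 100.3, 108 and 65.9 CPM in conduit 1, 2 and 3, against 118, 82.1 and 68.2 CPM in NC 1, 2 and 3, with conduit 3 and NC 3 low. The log2 fold changes were -0.30 ± 0.41 and 0.03 ± 0.28 (SE, edgeR adjusted p 1.00 for each).

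The 12 members that were not tested did not pass the filter on low counts, which asks for a minimum count in enough libraries, and had at most 89 counts over the 6 libraries. Wnt3, Wnt3a, Wnt8a, Wnt8b and Dkk4 had no count in any library, which allows up to 3 counts in each. Wnt7a and Rspo4 had 1 count each, both in NC 3. Wnt1 had 0, 2 and 0 counts in conduit 1, 2 and 3, against 0, 1 and 2 counts in NC 1, 2 and 3. Wnt4 had 4, 7 and 5 counts in conduit 1, 2 and 3, against 0, 2 and 6 counts in NC 1, 2 and 3, and Fzd10 had 0, 0 and 0 counts in conduit 1, 2 and 3, against 1, 0 and 7 counts in NC 1, 2 and 3. Fzd9 had 5, 10 and 5 counts in conduit 1, 2 and 3, against 3, 16 and 9 counts in NC 1, 2 and 3, with no group above the other.

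Leaving out NC 2, the library with the highest myelin level, moved the count of members with an unadjusted p under 0.05 to 4 of the 33 members tested in that fit, which is 12.1% against 4.03% of all genes in it. These were Wnt2b, with a log2 fold change of 1.31 ± 0.40 (SE), and Fzd4, Frzb and Wnt5a, with -0.71 ± 0.26, -1.22 ± 0.47 and -0.54 ± 0.22. None passed adjustment over all genes (edgeR adjusted p 0.963 for each). Without NC 2 the NC group held NC 1 and NC 3, with myelin list levels of -2.88 and -1.18. Conduit 1, 2 and 3 stood at 1.63, -2.38 and 1.96. Group and myelin level thus partly coincided in this fit, and the part of tissue make-up in the 4 members was not tested. The other 5 libraries left out in turn gave a count of 0 each.

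Other genes of the Wnt pathway were taken from a list of 70, of which 66 were tested. None was called by edgeR, DESeq2 or limma-voom, and 2 had an unadjusted p under 0.05 in edgeR, both lower with the conduit, which is 3.03% against 1.72% of all genes. The list had 31 positive and 35 negative log2 fold changes, with a median of -0.01. In 6 of the 66 the groups did not overlap, which is 9.09% against 5.69% of all genes. Of these, 2 were higher (3.03% against 2.81% of all genes) and 4 lower (6.06% against 2.88%). Sost, which encodes the Lrp5 and Lrp6 inhibitor sclerostin, had the smallest unadjusted p, with 12, 8 and 12 counts in conduit 1, 2 and 3, against 27, 34 and 27 counts in NC 1, 2 and 3. Each conduit library lay below each NC library, at 0.702, 0.435 and 0.708 CPM in conduit 1, 2 and 3, against 1.402, 1.97 and 1.95 CPM in NC 1, 2 and 3, and the log2 fold change was -1.52 ± 0.39 (SE, unadjusted p 0.00764, edgeR adjusted p 1.00). Dact2, a modulator of Dishevelled, stood at 13.7, 16.9 and 10.7 CPM in conduit 1, 2 and 3, against 23.7, 17.7 and 21.1 CPM in NC 1, 2 and 3. Its groups did not overlap, and its log2 fold change was -0.60 ± 0.21 (SE, unadjusted p 0.0296, edgeR adjusted p 1.00). Apcdd1, a membrane inhibitor of Wnt signalling, stood at 76.4, 64.1 and 66.3 CPM in conduit 1, 2 and 3, against 80.3, 89.6 and 198 CPM in NC 1, 2 and 3. The groups did not overlap either, NC 3 was far above the rest, and the log2 fold change was -0.83 ± 0.36 (SE, edgeR adjusted p 1.00).

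Of 7 listed targets of β-catenin, 6 were tested and 0 called, with 4 positive and 2 negative log2 fold changes and a median of 0.18. They were Ccnd1 (0.05), Myc (-0.07), Cd44 (0.33), Tnfrsf19 (0.31), Ccn4 (-0.27) and Ccn5 (0.52), as log2 fold changes, and Sp5 did not pass the filter. Axin2, a widely used reporter of β-catenin activity, stood at 10.2, 9.02 and 7.901 CPM in conduit 1, 2 and 3, against 10.02, 9.59 and 8.96 CPM in NC 1, 2 and 3, with a log2 fold change of -0.07 ± 0.17 (SE, 95% interval -0.48 to 0.33). The groups overlapped and the interval lay within a 2-fold change. Lef1, a target and a partner of β-catenin, stood at 11.4, 8.59 and 4.66 CPM in conduit 1, 2 and 3, against 6.33, 6.59 and 3.76 CPM in NC 1, 2 and 3, with conduit 1 and conduit 2 above the NC libraries and conduit 3 among them. Its log2 fold change was 0.56 ± 0.39 (SE, edgeR adjusted p 1.00). Tcf7 and β-catenin itself (Ctnnb1) had log2 fold changes of 0.15 ± 0.25 and 0.09 ± 0.15, and Ctnnb1 stood at 501, 473 and 452 CPM in conduit 1, 2 and 3, against 493, 460.4 and 386 CPM in NC 1, 2 and 3. Wls and Porcn, which are needed to secrete and to lipidate Wnt ligands, had log2 fold changes of 0.04 ± 0.12 and 0.05 ± 0.13. Their levels were close in all libraries, and Wls stood at 129, 124 and 126 CPM in conduit 1, 2 and 3, against 133, 111 and 124 CPM in NC 1, 2 and 3. Axin1, a scaffold of the complex that degrades β-catenin, had 0.13 ± 0.10, and its groups did not overlap. Lgr4, the R-spondin receptor, and Ror2, a receptor of Wnt5a, had log2 fold changes of -0.10 ± 0.36 and 0.31 ± 0.30. The planar polarity gene Prickle1 had 0.32 ± 0.29, the target Ccn5 0.52 ± 0.48 and the β-catenin cofactor Bcl9l -0.16 ± 0.14 (SE, edgeR adjusted p 1.00 for each gene of this paragraph).

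**Figure D5:**
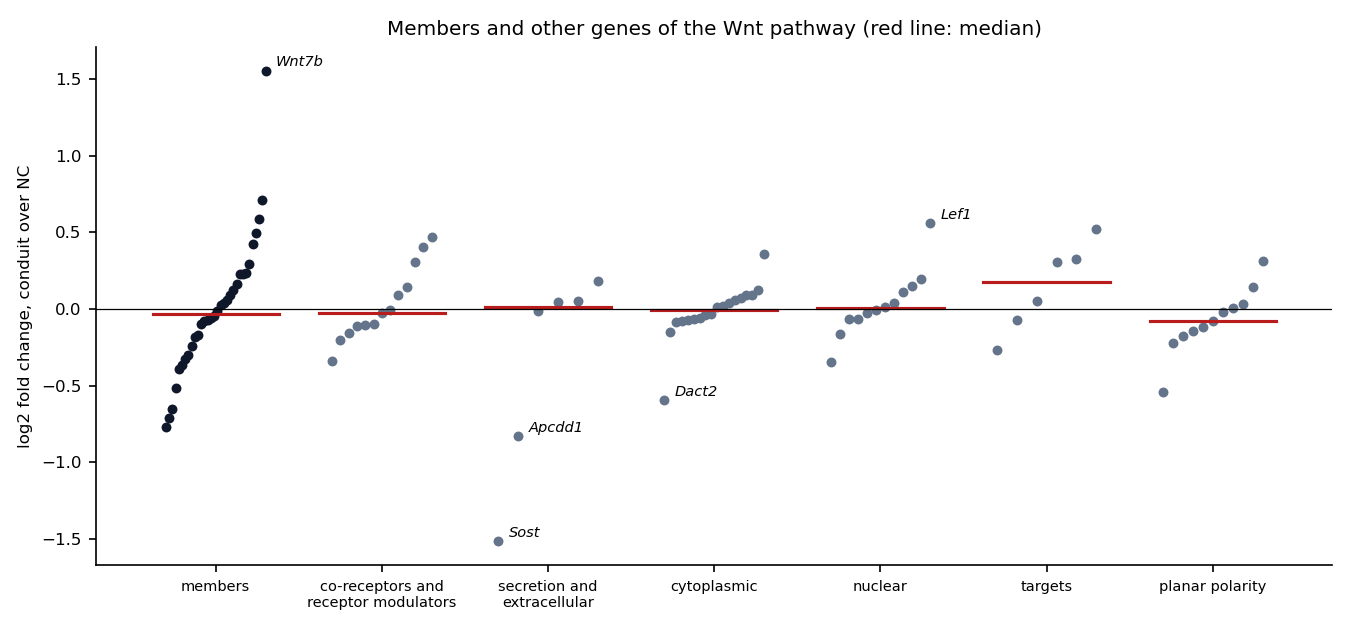
Log2 fold change (conduit over NC) of the 32 tested members and of 66 other Wnt pathway genes by role; points are genes and red lines medians, with the members drawn as one group. The medians of the 6 pathway groups lie between -0.08 for planar polarity and 0.18 for targets, and Sost has the lowest value.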

How the data were processed

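Polyadenylated RNA was sequenced in 6 libraries with a NEBNext Ultra RNA kit, per the labels' protocols; this kit does not mark strand. Per-gene expected counts, that is estimated counts, were deposited by the authors, and the column totals differ as those of values that were not normalized do. Tools in the submitters' processing notes are DESeq2, HISAT2, Bowtie2 2.2.8 and StringTie 1.3.1, whose roles are not stated, and the genome build is not given in the sources used here. Columns of treated libraries carry the name Gel_HA-Mg, lacking GDNF, and were taken as GDNF-Gel/HA-Mg because no other group has that material. After rounding, filterByExpr kept 13999 genes, and library sizes were scaled by TMM. The test was that of edgeR 4.0.16 under R 4.3.3 with group as its single term, and a call needed a Benjamini-Hochberg adjusted p below 0.05. Standard errors come from the log2 fold change and its F statistic, so 95% intervals are approximate. CPM uses TMM-scaled library sizes, counts are not divided by length, and levels are compared only within a gene. List levels are mean log2 CPM with a prior count of 2. Counting intervals and limits cover counting error only. No pair of libraries agreed within sampling noise.

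The members and lists were chosen with earlier results of these data known. Values in every library were to be given for tested members among the 12 with the smallest unadjusted p, the 8 with the highest mean CPM, the 5 with the widest ratio between libraries, or with no overlap, and 19 met this. The other members were added after their values were seen. Pathway genes were the 8 with the smallest p and 8 fixed ones. All 44 members were matched by symbol to RefSeq (GRCr8), used for gene order and promoters. DESeq2 1.42.0 and limma-voom (limma 3.58.1), other scalings and filters, a block for the replicate number and fits that omit 1 library were alternatives. Figures were drawn with matplotlib 3.10.9.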

Additional observations from a re-analysis of the deposited data

How the results depend on the processing

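No member and no other Wnt pathway gene was called under any of the 14 alternatives (3 scalings, 2 filters, 2 tools, the block and 6 libraries left out). Over all genes, DESeq2 called 11 and the other alternatives 0. Members with an unadjusted p under 0.05 numbered 0 to 4 with a library left out, 4 of them without NC 2, and 0 elsewhere. With a library left out, the count of negative members ran from 12 to 20, within 1.5 times the count of 17. The median log2 fold change of the members ran from -0.19 to 0.14 and so changed sign. It moved by less than the pooled SD of the members' median over the libraries, 0.22, which is wide beside the main value of -0.03. Of 50 named genes, 21 kept their direction in every alternative run, but 17 of these moved by over 1.5 times with a library left out: Apcdd1 -1.05 to -0.30, Bcl9l -0.27 to -0.094, Ccn5 0.13 to 0.80, Dkk2 -0.67 to -0.034, Lef1 0.26 to 0.84, Porcn 0.040 to 0.086, Prickle1 0.13 to 0.58, Ror2 0.093 to 0.67, Sfrp1 0.034 to 0.58, Wif1 -0.93 to -0.075, Wnt11 -0.68 to -0.10, Wnt16 -1.05 to -0.33, Wnt2 -0.56 to -0.040, Wnt2b 0.43 to 1.31, Wnt5a -0.56 to -0.25, Wnt7b 0.23 to 2.19, Wnt9b -1.64 to -0.35. Scalings turned 1 direction, that of Sostdc1 with upper quartile scaling (0.0070). Limma-voom turned Fzd5 (-0.031), Fzd6 (0.029), Lrp5 (0.035), Sfrp5 (0.14), Lgr4 (0.015), Sostdc1 (0.54), Lgr5 (0.013) and Celsr2 (0.54). Labels do not say that replicate numbers pair the samples, and deviations of the same number correlated at 0.099, -0.72 and 0.055, so they were not taken as pairs. With the replicate number as a block, 0 genes were called, and Fzd6 (0.016), Lrp5 (0.027), Sfrp5 (0.36), Lgr4 (0.0084), Sostdc1 (1.71), Lgr5 (1.12) and Celsr2 (0.38) turned. Leaving out a library turned the log2 fold change of 29 genes, none past the threshold, with these ranges: Axin2 -0.16 to 0.014, Celsr2 -0.76 to 0.39, Ctnnb1 -0.0053 to 0.18, Dkk3 -0.14 to 0.30, Frzb -1.22 to 0.020, Fzd1 -0.097 to 0.34, Fzd2 -0.058 to 0.68, Fzd3 -0.18 to 0.40, Fzd4 -0.71 to 0.14, Fzd5 -0.25 to 0.32, Fzd6 -0.23 to 0.17, Fzd7 -0.24 to 0.072, Fzd8 -0.31 to 0.32, Lgr4 -0.43 to 0.16, Lgr5 -0.98 to 2.23, Lrp5 -0.31 to 0.25, Lrp6 -0.32 to 0.13, Rspo1 -0.27 to 0.36, Rspo3 -0.57 to 0.38, Sfrp2 -0.51 to 0.13, Sfrp4 -0.61 to 0.60, Sfrp5 -0.64 to 1.21, Sostdc1 -0.54 to 2.60, Tcf7 -0.050 to 0.37, Wls -0.023 to 0.12, Wnt10a -0.011 to 1.09, Wnt10b -1.17 to 2.25, Wnt6 -0.057 to 1.22, Wnt9a -0.044 to 0.58. Wnt7b could not be fitted under the filter that asks for a CPM of 1 or more in 3 or more libraries. Correlations with RLE scaling gave 0 calls, under the same lower limit of the permutation p. The lowest adjusted p of a named gene in any alternative was 0.646. Depth limits the 12 members that did not pass the filter.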

Other observations

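Some other pathway genes, chosen after their values were seen, differed more between libraries than between groups. Sostdc1, a secreted inhibitor of Wnt and BMP signalling, stood at 77.3, 3.91 and 86.5 CPM in conduit 1, 2 and 3, against 3.79, 150.4 and 14.7 CPM in NC 1, 2 and 3. Lgr5, an R-spondin receptor, stood at 8.02, 0.489 and 11.3 CPM in conduit 1, 2 and 3, against 0.935, 22.2 and 1.88 CPM in NC 1, 2 and 3. Both were high in conduit 1, conduit 3 and NC 2, as Sfrp5 and the myelin list were, and low in the other 3 libraries. Their log2 fold changes were -0.01 ± 1.49 and -0.34 ± 1.41 (SE, edgeR adjusted p 1.00 for each). Celsr2, a cadherin of planar polarity, stood at 103, 81.6 and 95.2 CPM in conduit 1, 2 and 3, against 131, 185 and 10.6 CPM in NC 1, 2 and 3. NC 3 was far below the other 5 libraries, as for Fzd2, Fzd3 and Fzd8, and Lgr4 was also lowest there, at 65.9, 55.7 and 65.2 CPM in conduit 1, 2 and 3, against 77.8, 89.5 and 33.3 CPM in NC 1, 2 and 3. The levels of the Schwann lineage and adipocyte lists move with that library, and their part in these values was not tested.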
